A study of Mus musculus with 3 samples.

Results

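The genes of the hepatic conjugating enzymes were followed in single nuclei from 1 normal mouse liver and 2 livers with MASH-related fibrosis. The members were taken by symbol (Ugt1, Ugt2, Ugt3, Gsta, Gstm, Gstp, Gstt, Gstz, Gsto, Gstk, Mgst and Sult, pseudogenes left out) with at least 50 unique molecular identifiers (UMIs) summed over the 3 deposited matrices. Of 67 symbols that began this way, 54 had enough UMIs, among the 32285 genes of the files. They comprised 18 UDP-glycosyltransferases (UGT, with the UGT3 genes counted here) and 21 soluble glutathione S-transferases (GST, with the kappa class counted here). The others were 3 membrane-bound glutathione S-transferases (MGST) and 12 sulfotransferases (SULT). The members nearest the limit were Ugt2b37 with 59 UMIs and Sult6b1 with 68, and the nearest left out were Sult2a3 with 37 and Ugt2b38 with 26.

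The ND library came from 1 male C57BL/6J mouse on a normal diet without streptozocin. The STZ-HFHC 1 and STZ-HFHC 2 libraries came from 1 male C57BL/6J mouse each, given 0.2 mg streptozocin shortly after birth and later a diet high in fat and cholesterol. The model combines loss of insulin-producing cells with the diet, so the effects of the drug and of the diet cannot be told apart. The age of the sequenced mice is not given in the sources used here. The codes in the labels begin with 3rd for ND and 2nd for both STZ-HFHC mice, and what they stand for is not stated, so a difference in handling between them cannot be told apart from the condition.

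Conjugation makes lipophilic compounds water-soluble. UGT1 and UGT2 enzymes transfer a sugar from UDP-glucuronate, and GST enzymes join electrophiles to glutathione. SULT enzymes transfer sulfate from PAPS, and transporters then carry the products to bile or blood. These genes are best known in hepatocytes, where many are under xenobiotic receptors such as CAR and AhR or under NRF2, and several differ between male and female mice. Many lie in tandem arrays of near-identical copies, so reads from one copy can be lost or assigned to another.

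Upstream sequences are shown because neighbouring or closely related genes differed in these libraries. They were taken from RefSeq on build GRCm38.p6, which held start-site regions (250 bases before the start to 50 after) for 47 of the 54 members, and only bases before the start are printed. In the Gstp and Gsta sequences the 120 bases before the start are given, and capitals mark GCGTG, the core of the AhR element, on either strand. The bases lay at chr19:4037913-4038032 (minus strand) for Gstp1, chr19:4042222-4042341 (minus) for Gstp2, chr9:78230549-78230668 (plus) for Gsta1 and chr9:78347146-78347265 (minus) for Gsta2.
Gstp1: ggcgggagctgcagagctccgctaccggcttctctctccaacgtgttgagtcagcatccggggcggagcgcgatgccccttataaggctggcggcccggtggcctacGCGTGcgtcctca
Gstp2: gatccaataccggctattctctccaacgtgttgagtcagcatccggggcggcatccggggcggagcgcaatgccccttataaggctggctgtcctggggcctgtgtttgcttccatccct
Gsta1: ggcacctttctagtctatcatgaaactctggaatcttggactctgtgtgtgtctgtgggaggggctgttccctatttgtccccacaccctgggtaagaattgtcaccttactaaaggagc
Gsta2: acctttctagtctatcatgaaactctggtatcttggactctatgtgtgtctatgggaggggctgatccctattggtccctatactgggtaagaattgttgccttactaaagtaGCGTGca
Over the 250 bases before the start, Gstp1 and Gstp2 were identical at 209 of 265 aligned columns (78.9%), and Gsta1 and Gsta2 at 191 of 263 (72.6%).

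The antioxidant element bound by NRF2, searched as TGACNNNGC on both strands, was found in 4 of the 47 members (Gsta3, Gstm5, Gstm7 and Mgst1), or 8.51%, against 14.0% of all 27025 genes with such regions. It is shown in capitals with 30 bases on each side for the 3 of these with enough UMIs in hepatocytes, at chr1:21240434-21240502 (plus strand), chr3:107931705-107931773 (minus) and chr6:138140441-138140509 (plus).
Gsta3: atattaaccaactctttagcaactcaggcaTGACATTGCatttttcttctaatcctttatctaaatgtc
Gstm7: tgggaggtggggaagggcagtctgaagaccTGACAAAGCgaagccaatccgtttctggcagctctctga
Mgst1: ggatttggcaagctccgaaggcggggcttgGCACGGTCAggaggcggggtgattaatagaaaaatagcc
GCGTG was found in 12 of the 47 members (25.5%), against 35.2% of all genes. GTTAAT, a core of the element of the hepatocyte factor HNF1, was found in 9 (19.1%), namely Ugt1a1, Ugt1a6a, Ugt1a9, Ugt1a10, Ugt2a3, Ugt3a1, Sult1a1, Sult1d1 and Gsta3, against 8.24% of all genes. The GCGTG match of Gsta1 did not end before the start, so it is not marked, and it may cross the start or lie after it. The Gsta1 and Gsta2 regions each held 1 match, and the Gstp2 region held none. A match is a description of letters and no binding site. The windows and pairs printed were chosen after the values were seen.

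After limits on genes and mitochondrial counts, 8494 ND, 8921 STZ-HFHC 1 and 10921 STZ-HFHC 2 nuclei remained, with median depths of 4068, 3015 and 4027 UMIs. Nuclei were put in classes by marker genes, with the members left out of clustering. The hepatocyte-like class held 5406, 2960 and 4777 nuclei and between 25713331 and 35091043 UMIs per library. Its 2 largest ND clusters passed the first marker rule, while its main STZ-HFHC clusters were named by a looser second rule. ND hepatocyte-like nuclei fell almost wholly in other clusters than those of the STZ-HFHC mice. Their mitochondrial share was 0.162% against 0.0399% and 0.0330%, which depended on the clusters kept. A cluster with 866 ND nuclei stayed in the class with mitochondrial genes among its leading genes. Another cluster, led by mitochondrial genes and closest to hepatocytes, was left unnamed. It held 20 ND, 992 STZ-HFHC 1 and 558 STZ-HFHC 2 nuclei. Hepatocyte markers were present in every other class, at 52.0% to 94.7% of their hepatocyte-like level. This level was taken as that of RNA free in the suspension, against which each class was read. Free RNA was not removed from the hepatocyte-like values given below. They therefore include it, and its composition can differ between the libraries. Median depths of hepatocyte-like nuclei were 4030, 7956 and 6529 UMIs, and each pair of libraries shared 29 to 32 barcodes.

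In hepatocyte-like nuclei the summed level of the SULT members was 1607 UMIs per 1000000 UMIs of the class (CPM) in ND and 373 and 553 CPM in the STZ-HFHC mice. From here on, values given as a set of 3 are in the order ND, STZ-HFHC 1, STZ-HFHC 2. The SULT difference lay in Sult2a8, since without it the sums were 174, 202 and 271 CPM. The GST sum went the other way, with 978 CPM in ND and 1421 and 1354 in the STZ-HFHC mice. Gsta3 alone was at 389, 791 and 746 CPM. Of the 20 GST members tested below, 8 were higher than ND in both mice and 10 were lower. UGT members summed to 1528, 1353 and 1583 CPM, so the ND value lay between those of the STZ-HFHC mice. MGST members summed to 446, 325 and 284 CPM. These are sums in 3 mice, and no test was applied to them.

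**Figure D1:**
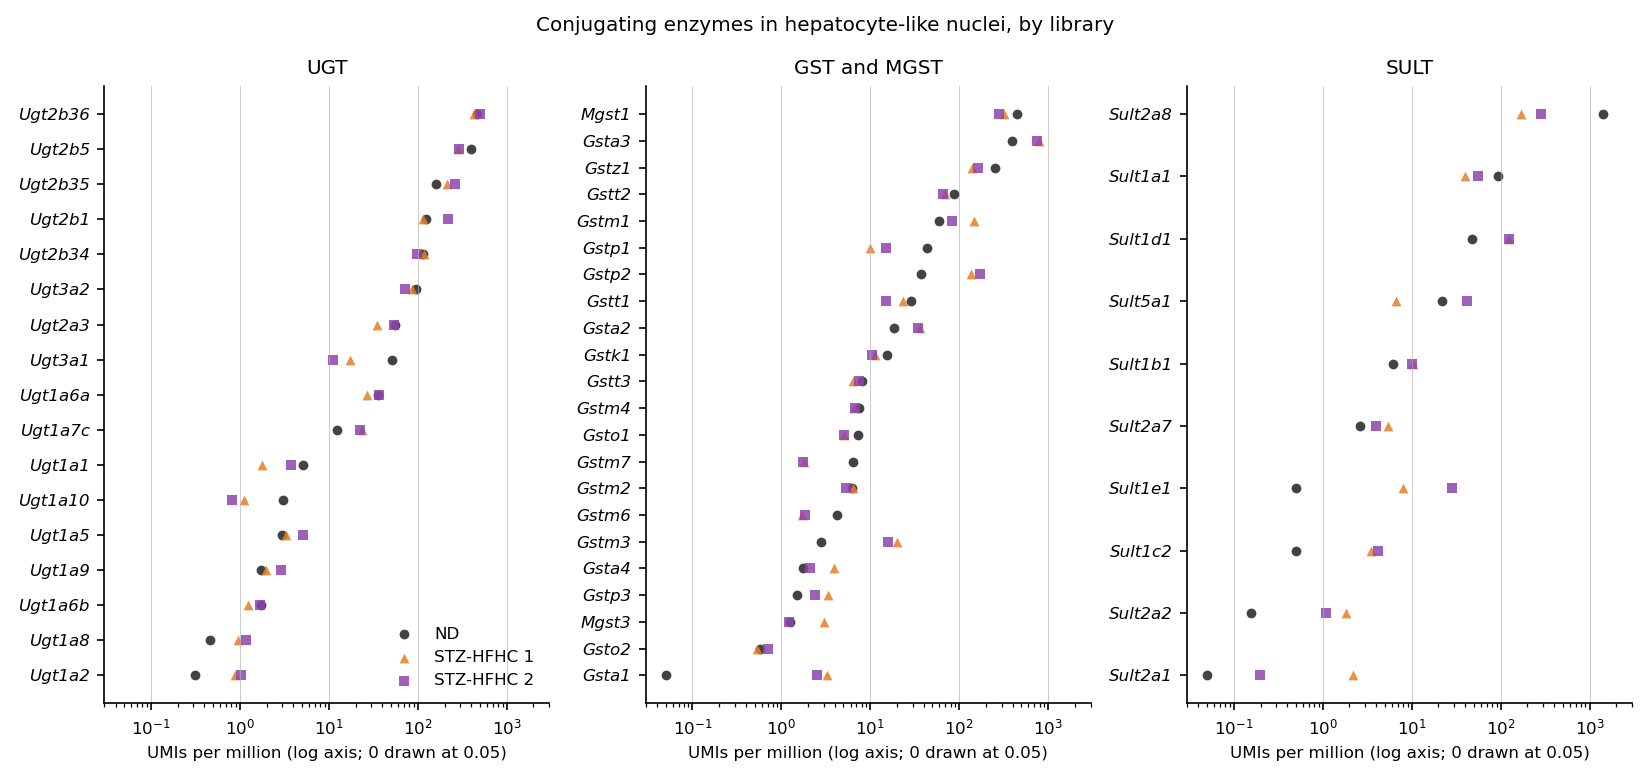
CPM in hepatocyte-like nuclei (log axis) for the 49 members with at least 50 UMIs in this class, by family, with 1 symbol per library. A value of 0 is drawn at 0.05. Sult2a8 lay at 1433 CPM in ND and at 172 and 281 in the STZ-HFHC mice, and Gsta1 and Sult2a1 had no UMI in ND.

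ND and STZ-HFHC hepatocyte-like nuclei were compared to ask which conjugating enzymes differed in the diseased liver. In the STZ-HFHC mice 3 members rose (Gsta1, Gstp2 and Gstm3, all GST genes) and 2 fell (Sult2a8 and Ugt3a1). Of the 54 members, 49 reached 50 UMIs in this class and entered the fit of 14826 genes (edgeR's quasi-likelihood test on UMI sums per mouse, Benjamini-Hochberg adjusted p under 0.05). The 3 that rose were 6.12% of the members tested, against 0.924% of all genes, and the 2 that fell were 4.08%, against 1.29%. Gsta1 had no UMI in ND and met the limit of 50 only through the STZ-HFHC libraries, so it could only come out higher. Among genes with at least 50 UMIs in ND, a subset taken after the values were seen, the same fit called 2 of 36 members higher (Gstp2 and Gstm3, 5.56%), against 0.808% of 11998 genes. The spread comes from the 2 STZ-HFHC mice alone (1 residual degree of freedom), and the ND mouse is assumed to vary as they did. For each gene it was drawn towards a trend over all genes tested (4.28 prior degrees of freedom). An unadjusted p under 0.05 was found for 20 of the 49 members (40.8%) and for 23.1% of all genes tested. The median log2 change was 0.01 over the members tested and 0.00 over all genes, and by family it was -0.18 for UGT, -0.24 for GST, 0.00 for MGST and 1.01 for SULT. The SULT value included Sult1e1, Sult1c2, Sult2a1 and Sult2a2, which met the limit only through the STZ-HFHC libraries and had to be higher, and the median of the other 6 was 0.32. In both mice 21 members were higher than in ND and 20 lower, and in 8 the mice disagreed.

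By a rule of size without a test, at least 2-fold to the same side of ND in each STZ-HFHC mouse, 10 members were higher (20.4%, against 8.35% of all genes) and 6 were lower (12.2%, against 5.52%). Of the 10, 7 had fewer than 50 UMIs in ND and entered only through the STZ-HFHC libraries, so that they had to be higher. Gstm3, Gstp2 and Sult1d1 had enough in ND as well. Of the 6, Gstm6, Gstm7 and Ugt1a10 had fewer than 50 UMIs in an STZ-HFHC mouse. Ugt1a2 and Ugt1a8, among the 10, and Ugt1a10, among the 6, share most of their transcript ends with other Ugt1a members. How reads were divided among these genes is uncertain.

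**Figure D2:**
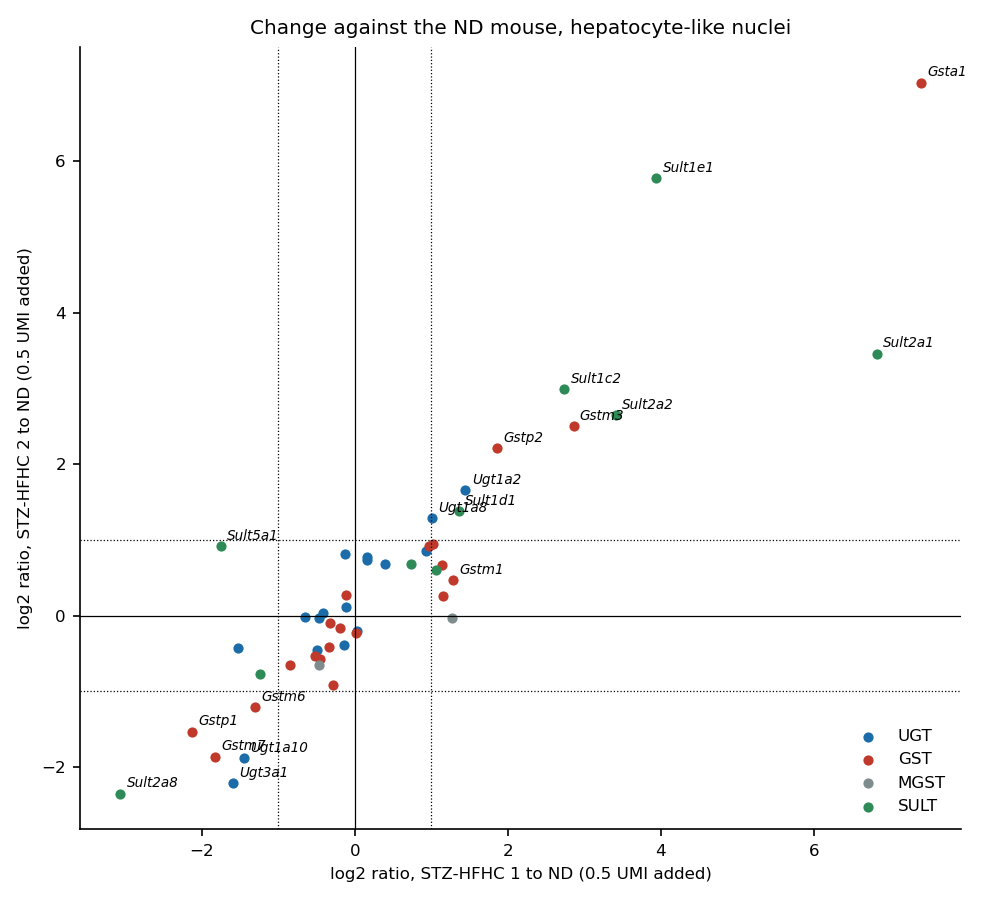
Log2 ratio to ND in STZ-HFHC 1 (x axis) against STZ-HFHC 2 (y axis) for the 49 members, 0.5 UMI added, coloured by family, with dotted lines at 2-fold. Both axes share the ND library. The 10 members past 2-fold higher lie at the upper right, the 6 past 2-fold lower at the lower left, and Sult5a1 was at -1.75 in one mouse and 0.92 in the other.

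Among the alpha-class GST genes, which act on lipid peroxidation products and other electrophiles, Gsta1 (chr9:78230656-78242684, plus strand, mm10) had 0 UMIs in ND and 85 and 89 in the STZ-HFHC mice, or 3.26 and 2.54 CPM. A count of 0 allows up to 0.117 CPM in ND (3 counts in that library), so Gsta1 was at least 27.9-fold and 21.7-fold higher (adjusted p = 0.0342 in edgeR's quasi-likelihood test, from 0.000218 to 0.110 over 17 alternatives, 12 of which called it). Since the limit was met through the STZ-HFHC libraries alone, this p tests no direction that could have gone the other way. Gsta2 was at 18.3 CPM in ND and 36.0 and 34.6 in the STZ-HFHC mice, a log2 difference of 0.85 that did not pass the test (adjusted p = 0.117). Gsta4 was at 1.75, 3.91 and 2.11. Gsta3, known for inactivating aflatoxin epoxide in mice, was at 389, 791 and 746 CPM, higher in both mice with a log2 difference of 0.88 (adjusted p = 0.0978). Of the 90-base windows in the last 500 bases of the Gsta1 transcripts, 81.8% also occur in Gsta2 or in the Gsta-like genes Gm3776 and Gm10639. Gm3776 had 0 UMIs in ND and 59 and 53 in the STZ-HFHC mice, so how Gsta1 counts were divided from it is uncertain.

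The pi-class genes Gstp1 and Gstp2, 2.3 kb apart on chromosome 19, lay on opposite sides of ND. Gstp2 (chr19:4040285-4046023, minus strand) was at 37.2 CPM in ND and 135 and 172 in the STZ-HFHC mice, and rose by 1.95 on the log2 scale (adjusted p = 0.0357). It passed in 13 of 18 alternatives (adjusted p from 2.10e-08 to 0.0985). The ratio to ND was 2.04 ± 0.25 on the log2 scale (SD, n = 2). Gstp1 (chr19:4035407-4037985, minus strand) was at 43.1 CPM in ND, above its 9.85 and 14.9 in the STZ-HFHC mice, a log2 difference of -1.90 with an adjusted p of 0.0508. Gstp3 was at 1.52, 3.37 and 2.42, and its log2 difference of 0.83 did not pass the test (adjusted p = 0.356). The 3 genes together were at 81.9, 149 and 190 CPM. Gstp1 and Gstp2 share 506 of their 90-base windows, 31.1% of those of Gstp1 and 47.3% of those of Gstp2, and reads that fall in these cannot be placed in one gene. Gstp1 also differed among ND clusters, with 76.7 CPM in the ND cluster led by mitochondrial and Mup genes against 39.2 in the largest and 26.9 in the pericentral ND cluster, all above both STZ-HFHC mice. Gstp2 was at 31.2, 36.5 and 45.1 CPM in those clusters, all below both STZ-HFHC mice. Without the mitochondrial cluster the log2 difference of Gstp1 was -1.69 (adjusted p = 0.0706, range 0.000136 to 0.0987 over 18 alternatives).

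The 7 mu-class genes lie in an array of 149.1 kb on chromosome 3, and 6 reached 50 UMIs in this class. Gstm3 (chr3:107963696-107969283, minus strand) was at 2.76 CPM in ND and 20.2 and 15.7 in the STZ-HFHC mice, and rose by 2.60 on the log2 scale (adjusted p = 0.0365). Gstm7 was at 6.46, 1.80 and 1.77, and Gstm6 at 4.28, 1.72 and 1.85, at least 2-fold lower in both mice without passing the test (adjusted p = 0.0675 and 0.139). Gstm1 was at 59.6, 146 and 82.4, and its log2 difference of 0.84 did not pass the test (adjusted p = 0.260). Gstm2 (6.30, 6.36 and 5.36) and Gstm4 (7.54, 6.59 and 6.73) were within 1.5-fold of ND. Gstm3 lay 19.9 kb from Gstm6. It passed in 12 of 18 alternatives (adjusted p from 5.79e-06 to 0.0983). Gstm1 was among the 10 leading genes of a cluster led by mitochondrial genes that was left unnamed, at 913, 1064 and 517 CPM on 30, 3013 and 983 UMIs. With that cluster added Gsta1, Gstm3 and Gstp2 still passed.

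**Figure D3:**
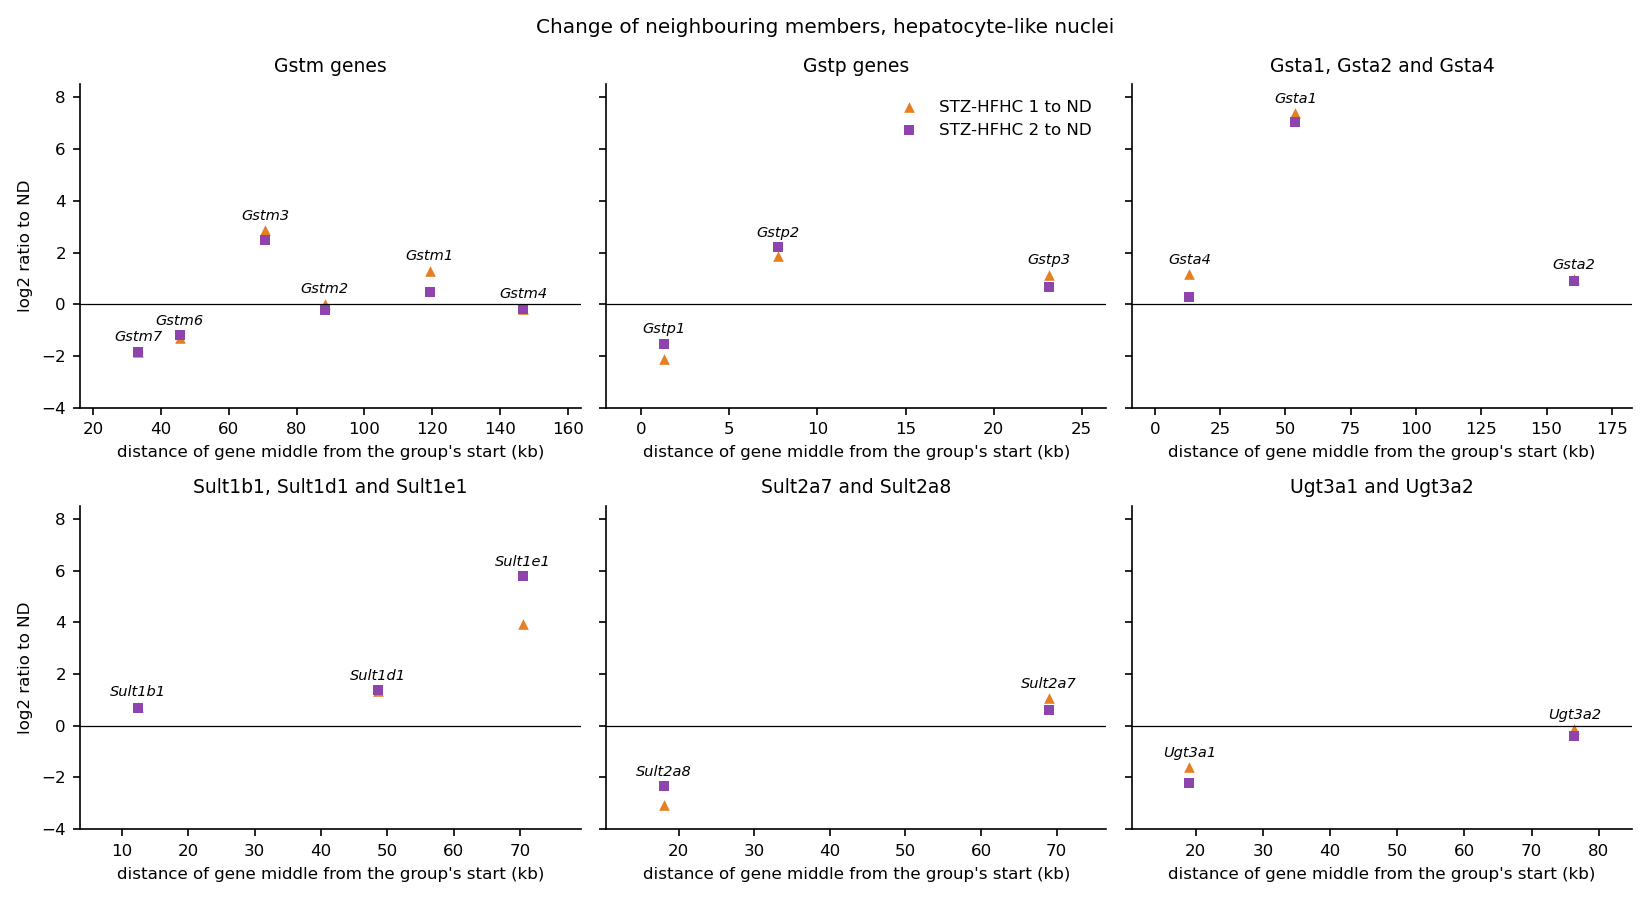
Log2 ratio to ND in each STZ-HFHC mouse (0.5 UMI added) against the distance in kb of each gene's middle from the start of its group, for 6 groups of neighbouring members. Gstp1 lies below 0 beside Gstp2 and Gstp3 above it, Gstm7 and Gstm6 lie below 0 beside Gstm3 above it, and Sult2a8 lies below 0 beside Sult2a7 above it.

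None of the remaining GST members passed the test. Gstz1, the maleylacetoacetate isomerase of tyrosine breakdown, was at 253 CPM in ND and 141 and 162 in the STZ-HFHC mice (log2 difference -0.85, adjusted p = 0.0894). The theta-class genes Gstt1 (28.5, 23.5 and 15.1) and Gstt2 (86.6, 68.7 and 65.2), which handle small halogenated compounds, were lower in both mice, as were Gstk1 (15.4, 11.2 and 10.4) and Gsto1 (7.35, 5.14 and 5.07). The membrane-bound Mgst1 was at 445, 322 and 282 CPM (log2 difference -0.66, adjusted p = 0.147), and Mgst3 at 1.24, 3.03 and 1.23, high in 1 mouse of the 3. Gstt3 (8.05, 6.44 and 7.49 CPM) and Gsto2 (0.583, 0.537 and 0.712) had adjusted p of 0.582 and 0.997. Mgst2, Gstm5, Ugt2b37, Sult2b1 and Sult6b1 stayed under 50 UMIs in this class, with 3 to 19 UMIs in each library, and were not tested.

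Among sulfotransferases, Sult2a8 (chr7:14410686-14446769, minus strand), a bile acid sulfotransferase, was at 1433 CPM in ND and 172 and 281 in the STZ-HFHC mice. It fell by 2.76 on the log2 scale (adjusted p = 0.0295 in edgeR's quasi-likelihood test) and passed in 16 of 18 alternatives (adjusted p from 8.44e-15 to 0.0793). Its neighbour Sult2a7, 18.3 kb away, was at 2.61, 5.44 and 3.96 CPM and did not pass (adjusted p = 0.343). The more distant Sult2a1 and Sult2a2, female-predominant in mouse liver, had few UMIs, 0, 57 and 7 for Sult2a1 and 4, 48 and 38 for Sult2a2. Sult2a1 was at least 18.7-fold and 1.71-fold higher against the limit for ND, so that the size rested on 1 mouse. Neither passed the test (adjusted p = 0.217 and 0.114).

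Sult1b1, Sult1d1 and Sult1e1 lie side by side within 78.3 kb of chromosome 5, and each was higher in both STZ-HFHC mice. Sult1d1, which sulfonates catecholamines, was at 48.2, 123 and 125 CPM, a mean log2 ratio of 1.37 ± 0.02 (SD, n = 2), and missed the threshold (adjusted p = 0.0502). Sult1e1, the estrogen sulfotransferase, had 13, 210 and 1009 UMIs, or 0.506, 8.05 and 28.8 CPM, with the 2 STZ-HFHC mice well apart (adjusted p = 0.0735). Sult1b1 was at 6.22, 10.4 and 9.97 CPM (adjusted p = 0.288). Sult1c2 was at 0.506, 3.49 and 4.16 CPM (adjusted p = 0.0625). Sult1a1, which sulfonates simple phenols, was at 93.6, 39.6 and 55.1 CPM, lower in both mice (log2 difference -1.08, adjusted p = 0.0944).

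Of the UGT members, Ugt3a1 (chr15:9276888-9315032, plus strand) fell by 1.97 on the log2 scale (adjusted p = 0.0491 in edgeR's quasi-likelihood test). It went from 52.0 CPM in ND to 17.2 and 11.2 in the STZ-HFHC mice. It passed in 7 of 18 alternatives (adjusted p from 4.76e-05 to 0.0847), and missed without the ND cluster led by mitochondrial and Mup genes (adjusted p = 0.0578). Ugt3a2, 20.5 kb away, was at 94.7, 85.8 and 72.4 CPM (adjusted p = 0.355). None of the UGT2 members, which glucuronidate steroids and many drugs, passed the test. Ugt2b36 was at 460, 425 and 497 CPM, Ugt2b5 at 402, 285 and 294 and Ugt2b35 at 161, 212 and 259. Ugt2b1 was at 125, 114 and 220, and ND lay between the STZ-HFHC mice. Ugt2b34 (114, 117 and 99.3 CPM) and Ugt2a3 (54.8, 34.8 and 53.9) had adjusted p of 0.627 and 0.463.

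The 9 Ugt1a members overlap on 1 strand of chromosome 1 and share their last exons, so that 50.3% to 60.6% of the exonic bases of each belong to others as well. Windows at the transcript ends, taken as for Gsta1, were 100% shared with other Ugt1a members in Ugt1a1, Ugt1a2, Ugt1a5, Ugt1a6b, Ugt1a8 and Ugt1a9. The share was 82.1% for Ugt1a10, 66.7% for Ugt1a6a and 58.3% for Ugt1a7c. Reads that fall in shared windows cannot be placed in a single gene. The values of all Ugt1a members are therefore uncertain. Ugt1a10 was at 3.07, 1.11 and 0.826 CPM, past 2-fold lower in both mice (adjusted p = 0.117), while Ugt1a2 (0.311, 0.882 and 1.03) and Ugt1a8 (0.467, 0.958 and 1.17) were past 2-fold higher on 8 and 12 UMIs in ND. Ugt1a1, the bilirubin glucuronosyltransferase, was at 5.09, 1.76 and 3.79 CPM (adjusted p = 0.333). Ugt1a6a was at 35.9, 26.9 and 36.8, and Ugt1a7c at 12.3, 23.4 and 22.3 (adjusted p = 0.149). Ugt1a5 (2.99, 3.33 and 5.13), Ugt1a6b (1.71, 1.23 and 1.68) and Ugt1a9 (1.75, 1.95 and 2.94) did not pass either.

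These calls were few and near the threshold. Without the 8% of nuclei with the highest doublet scores none of the 3 members that rose passed, and with all nuclei pooled without classes neither they nor the 2 that fell passed, while the log2 differences of these 5 members kept their direction. With no limits on genes or mitochondrial counts, Gsta1 and Sult2a8 passed and the other 3 did not.

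The other genes of the pathway were read from lists that hold no member. Of 12 NRF2 targets tested, Hmox1 (heme oxygenase, 2.33, 15.7 and 15.4 CPM), Cbr3 (carbonyl reductase) and Abcc4 (a conjugate exporter, 7.35, 202 and 96.0) rose and none fell, with a median log2 change of 1.24 against 0.00 over all genes. The adjusted p in edgeR's quasi-likelihood test were 0.0320, 0.0362 and 0.0365. Cbr3 had 15 UMIs in ND, and Slc7a11, another of these targets, had 6. Both met the limit on UMIs only through the STZ-HFHC libraries and had to be higher, and both entered the median. Over all genes tested, 0.924% were called higher and 1.29% lower. Nqo1 was at 1.98, 7.09 and 5.24 CPM and did not pass (adjusted p = 0.125). None of the 6 genes of glutathione synthesis and reduction passed (Gclc at 511, 829 and 793, adjusted p = 0.196). Of 4 genes supplying UDP-glucuronate, Ugp2, which makes UDP-glucose, rose by 1.97 on the log2 scale (295, 1118 and 1357 CPM, adjusted p = 0.0362). None of 5 genes of PAPS supply and none of 4 deconjugating enzymes passed. Of 9 exporters and uptake carriers, Abcc4 rose and none fell, and Abcc2, the main canalicular exporter of conjugates, was at 1828, 2031 and 1948 CPM.

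Of 11 xenobiotic receptors and partners, Nr1i3, which encodes CAR, fell by 1.86 on the log2 scale (636, 176 and 199 CPM, adjusted p = 0.0228), and Nfe2l2, which encodes NRF2, was at 236, 511 and 472 (adjusted p = 0.0819). Of 7 receptor targets, Cyp2b10, a CAR target, rose by 3.39 (3.93, 34.7 and 53.6 CPM, adjusted p = 0.0285), so that it and CAR moved in opposite directions. Of 9 genes known to be higher in males, Elovl3 (194, 2.61 and 9.95 CPM), Cyp2d9 (319, 57.3 and 86.1) and Hsd3b5 fell and none rose, with a median log2 change of -1.08 and adjusted p of 0.0379, 0.0320 and 0.0443. Of 6 genes known to be higher in females, Cyp2b9 rose (0.583, 558 and 329 CPM, adjusted p = 0.0180) and none fell. Cyp17a1, Acot3 and Prlr had log2 differences below 0. Cyp2b9, with 15 UMIs in ND, met the limit on UMIs only through the STZ-HFHC libraries and had to be higher. Hsd3b5, with 49, 2 and 3 UMIs, met it almost only through ND and had to be lower. Its value entered the median of the genes higher in males.

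Hepatocytes differ along the lobule, and many xenobiotic enzymes are known to be highest near the central vein. Within each library, hepatocyte-like nuclei were ranked by a score of pericentral minus periportal markers, and the highest and lowest tertiles were compared as a description without a test. Of 47 members with at least 50 UMIs over these tertiles, none was 2-fold higher in the pericentral tertile in all 3 mice (1.41% of all genes were). In the periportal tertile 1, Sult5a1, was 2-fold higher in all 3 (2.13%, against 0.779%). The rule can miss zoned genes. Of the markers that make up the score, Pck1 (log2 ratios of -0.24, -0.75 and -0.69) and Ass1 (-0.55, -1.07 and -0.86) did not pass it, while the others did. Sult5a1 was at 43.5 CPM periportal and 6.97 pericentral in ND, 12.9 and 2.71 in the first STZ-HFHC mouse and 69.6 and 14.6 in the other, log2 ratios of -2.63, -2.23 and -2.25. Its total differed between the STZ-HFHC mice, at 6.59 and 41.9 CPM against 22.2 in ND, and it did not pass the test between conditions (adjusted p = 0.990).

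Pericentral values were higher in all 3 mice, at any size, for 19 of the 47 members (40.4%, against 29.4% of all genes) and periportal values for 5 (10.6%, against 17.1%). The median log2 ratio was 0.25 over the members and 0.05 over all genes. Gsta3 was 570 pericentral against 220 periportal CPM in ND, 1088 against 573 in the first STZ-HFHC mouse and 1020 against 512 in the other, log2 ratios of 1.37, 0.92 and 1.00. Mgst1 had log2 ratios of 0.81, 0.74 and 0.90, and Gstm2 of 2.50, 0.93 and 1.76. Gstm3 had 2.95, 0.34 and 1.85. Sult2a8 was higher pericentrally in each mouse, with 1749 against 1015 CPM in ND, 307 against 64.1 in the first STZ-HFHC mouse and 440 against 150 in the other, so that it was below ND in both tertiles. Ugt2b36 and Ugt2b5 were near 0 in each mouse (-0.28 to 0.05). In both compared tertiles of every library, 29 members had at least 20 UMIs. Of these, 4 (Sult1a1, Gsta2, Gstk1 and Gstt3) had a ratio above 0 in ND and below 0 in both STZ-HFHC mice. They were 13.8%, against 23.2% of all genes with opposite signs either way. The sign for Gstt3 in the first STZ-HFHC mouse rested on 61 pericentral against 64 periportal UMIs. Between 495 and 835 nuclei per library lay near a tertile limit.

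**Figure D4:**
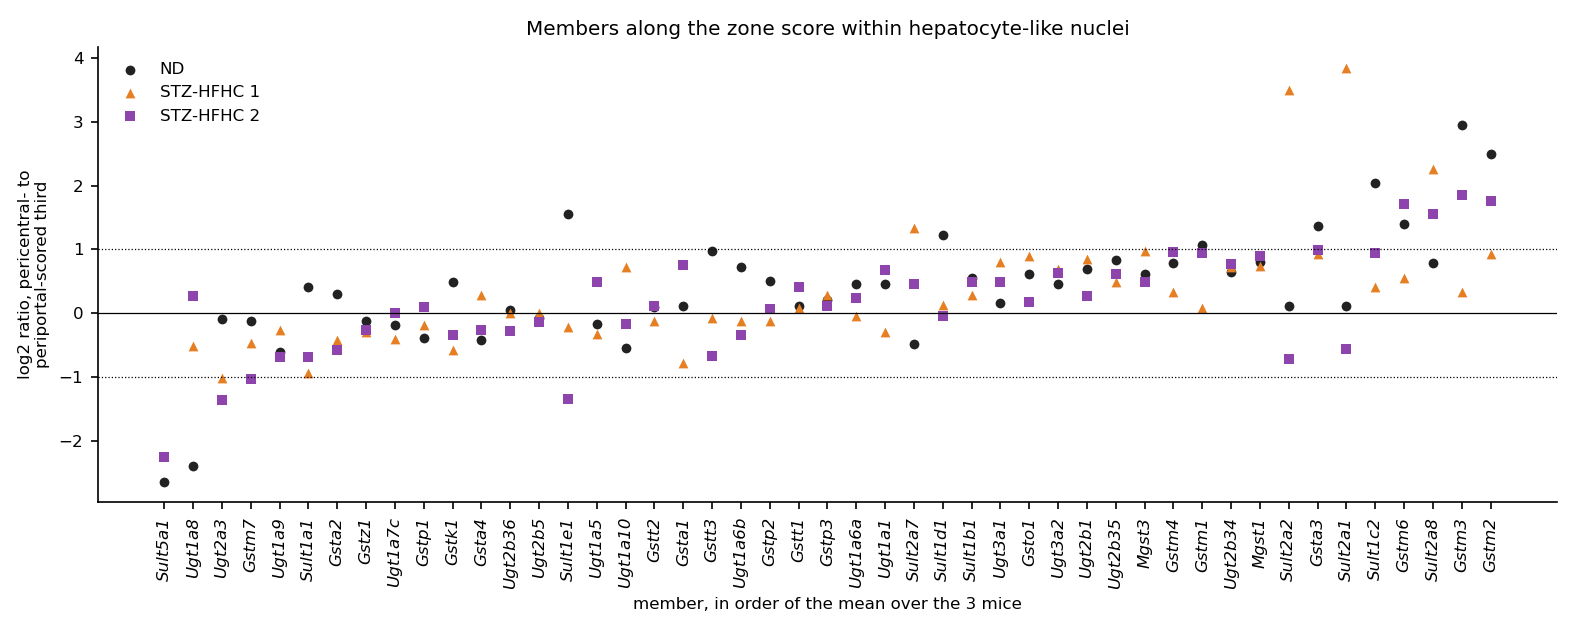
Log2 ratio of the pericentral-scored to the periportal-scored tertile (y axis, 0.5 UMI added) for 47 members in order of the mean, 1 symbol per mouse, with dotted lines at 2-fold. Values of Gsta1, Sult2a1 and Sult2a2 in ND rest on 0 or 1 UMI in each tertile. Sult5a1 lies below -2 in all 3 mice.

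Outside hepatocytes, the summed level of the members was 50.3% to 84.1% of that in hepatocyte-like nuclei of the same library, beside 52.0% to 94.7% for the median of the 10 hepatocyte markers. A member was counted as above free RNA when its ratio to hepatocyte-like nuclei was at least 3 times that of the markers in every library with 20 nuclei of the class, with 10 UMIs in each. None of 133 combinations of a member and a class passed, against 9.86% of 49325 combinations over all genes. None passed at 2 times or in any alternative run. With markers at 52.0% to 94.7%, 2 or 3 times their ratio lies above the hepatocyte-like level. A member expressed in another class at or below that level could not pass. The count therefore does not show whether members are expressed at lower levels outside hepatocytes. In ND, 64.3% of T or NK nuclei had a UMI of Sult2a8 after thinning to 1000 UMIs (63 of 98, exact interval 54.0% to 73.7%), beside 67.5% of hepatocyte-like nuclei (unthinned 79.5% and 91.0%, at median depths of 3172 and 4030 UMIs), a share read here as background.

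Single libraries came closer. Gsto1 was 3.76 times the marker ratio in monocyte-like nuclei of STZ-HFHC 1, and Gstt1 was 3.48 and 2.68 times in cholangiocyte-like nuclei of STZ-HFHC 1 and 2. Gstm1 reached 2.93 in stellate- or fibroblast-like nuclei of STZ-HFHC 1, Gstm2 reached 2.87 in those of STZ-HFHC 2 and Gstp3 reached 2.73 in macrophage-like nuclei of STZ-HFHC 1. These were chosen after their values were seen, and 2 of 491 single-library values with at least 10 UMIs reached 3 times. Gstm1 was also the highest member in B cell-like (2.35 and 1.57) and T or NK-like nuclei (2.11 and 1.41) of STZ-HFHC 1 and 2. In STZ-HFHC 2 no member with 10 UMIs was above 1.32 in monocyte-like or 1.98 in macrophage-like nuclei. The ND library held 16 macrophage-like and 32 cholangiocyte-like nuclei, so macrophage-like nuclei of ND were not used.

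**Figure D5:**
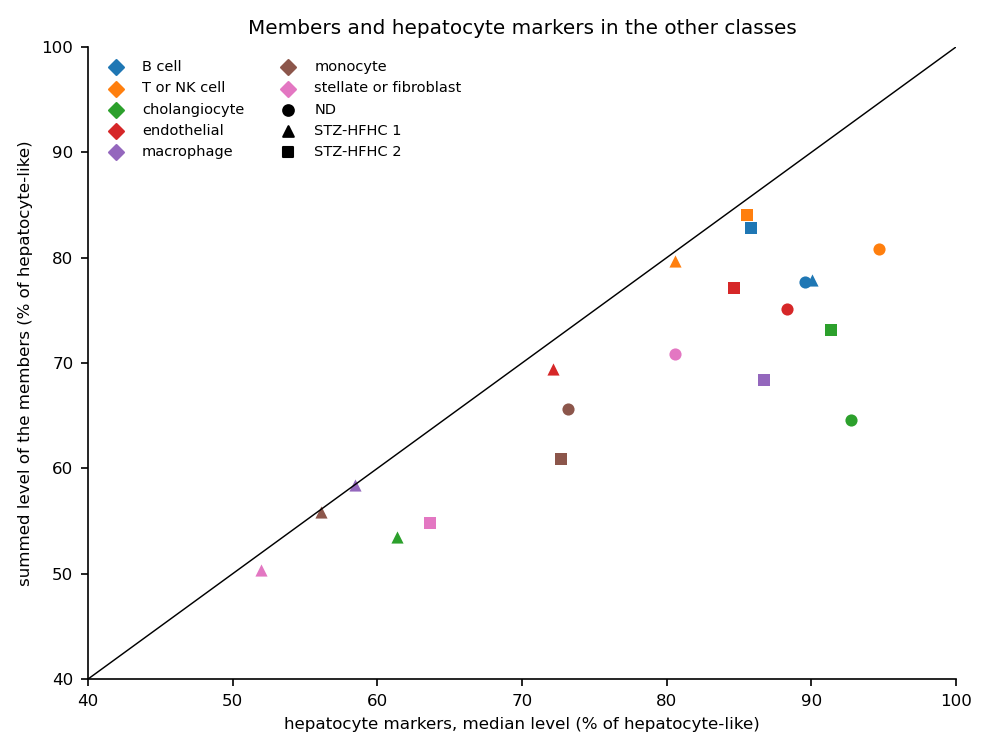
Summed level of the members (y axis) against the median level of 10 hepatocyte markers (x axis), both as a percentage of the level in hepatocyte-like nuclei of the same library, 1 point per class and library. Points lie on or below the line of equal percentages, between 50.3% and 84.1% on the y axis.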

How the data were processed

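The deposited files hold raw counts of UMIs, made by the authors with Cell Ranger 7.0.1 on build mm10 (per the submitters' processing notes), and whether intronic reads were counted is not given in the sources used here. Barcodes outside 200 to 5000 genes, or over 5% mitochondrial, were dropped. They were clustered in Scanpy 1.11.5 (2000 variable genes without the members, 30 components, 15 neighbours, resolution 1) and named with marker lists. A step that named the ND pericentral cluster was added after the clusters were seen. The 3 clusters with nearly all STZ-HFHC hepatocyte-like nuclei were named by a second pass with a lower fold limit. It compared them with other classes of the same library, and 9, 9 and 3 of the 10 hepatocyte markers passed. Scrublet's threshold marked 3, 1 and 1 nuclei and did not work, so doublets were kept. UMIs were summed over hepatocyte-like nuclei and tested with edgeR 4.0.16 (TMM, at least 50 UMIs), with DESeq2 1.42.0 as an alternative. On simulated data the edgeR fit called 27 of 100 genes changed 2-fold, 90 of 100 changed 4-fold and 7 unchanged genes. A member near 2-fold that did not pass is therefore not shown to be unchanged. Ratios used 0.5 added UMI. Replicates are separate mice, and p-values and intervals rest on few mice or on counting error only. Named members were those called, past 2-fold in both mice or in zones, nearest the UMI limit, or with most UMIs in a family, and other genes were named after their values were seen. Members and lists were chosen with earlier results of these data known. Shared windows came from GENCODE M21 transcripts. Protein sequences were not used here.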

Additional observations from a re-analysis of the deposited data

Results flagged for a closer look

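In 4 members, Sult1a1, Gsta2, Gstk1 and Gstt3, hepatocyte-like nuclei had a zone ratio of one sign in ND and of the opposite sign in both STZ-HFHC mice. Each had at least 20 UMIs in both compared tertiles of every library. The log2 ratio of the pericentral to the periportal tertile was 0.41 in ND against -0.93 and -0.69 in the STZ-HFHC mice for Sult1a1. In the same order it was 0.30, -0.42 and -0.58 for Gsta2, 0.50, -0.57 and -0.34 for Gstk1 and 0.97, -0.076 and -0.67 for Gstt3. For Gstt3 in STZ-HFHC 1 the sign rested on 61 pericentral against 64 periportal UMIs, a difference within counting error. The 4 were among 29 members with that depth (13.8%), against 23.2% of all 10483 genes. The difference between ND and STZ-HFHC was not tested, since ND is 1 mouse.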

How the results depend on the processing

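No paired analysis was possible because there is 1 ND mouse, whose label carries no replicate number, and nothing ties it to either STZ-HFHC mouse. The 3 members called higher and 2 called lower became 1 and 1 with DESeq2 size factors, 9 and 7 with no filter on low counts, 6 and 4 with filterByExpr, 7 and 5 with the DESeq2 Wald test, 1 and 1 with no limits on nuclei, 0 and 1 without the 8% highest doublet scores, and 0 and 0 with all nuclei pooled. Over all genes, called higher and lower, the counts were 137 and 191, against 67 and 95 with DESeq2 size factors, 786 and 975 with no filter, 323 and 428 with filterByExpr, 504 and 565 with the Wald test, 57 and 62 with no limits, 65 and 84 without doublets, and 0 and 0 pooled. The members called lower also became 1 with library totals alone, with resolution 2 and with members allowed in clustering. In alternatives added after seeing the data they were 1 without the ND cluster led by mitochondrial and Mup genes and 1 with the unnamed mitochondrial cluster, and in the middle tertile the counts were 0 higher and 0 lower. The rule of size gave 4 higher and 3 lower members after thinning to 1000 UMIs, 16 higher at 1.5-fold and 3 lower at 3-fold, and from 10 to 16 higher with 1 STZ-HFHC mouse left out, the 16 without STZ-HFHC replicate 2. Pericentral members past 2-fold numbered 1 after thinning (Gstm2) and 0 to 3 with 1 STZ-HFHC mouse left out (Gstm2, Gstm3 and Gstm6 without replicate 1). Sult5a1, at 0.03 on the log2 scale, turned to -0.14 with no limits, -0.57 pooled, -0.18 thinned, -0.12 without the ND pericentral cluster, -0.0064 with the mitochondrial cluster, -0.11 in the periportal tertile and, with 1 STZ-HFHC mouse left out, ranged from -1.84 to 0.81. Ugt2b36, at -0.10, turned to 0.0027 with library totals, 0.085 in the periportal tertile and ranged from -0.21 to 0.0032 with 1 mouse left out, and Mgst3, at 0.66, ranged from -0.13 to 1.18. Fewer UMIs enter when nuclei are thinned, and for the other changes the cause was not tested. The count of members above free RNA stayed 0 and that of periportal members stayed 1 in the alternatives run. With 1 ND mouse, no spread of the normal liver was measured.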
